A study of Mus musculus with 3 samples.

Results

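Blood clotting starts when tissue factor, the product of F3, meets factor VII of the plasma and the pair activates factor X, the product of F10. Active factor X and its cofactor, factor V (F5), then turn prothrombin into thrombin, which cuts fibrinogen to fibrin. Factor XIII, whose catalytic A subunit is made from F13a1, cross-links the fibrin, and tissue factor pathway inhibitor (Tfpi) restrains the first steps. Fibrin is cleared by plasmin. Urokinase (Plau), which binds a receptor at the cell surface (Plaur), is among the enzymes that release plasmin from plasminogen. Plasminogen activator inhibitor type 2 (Serpinb2) inhibits urokinase. Thrombospondin 1 (Thbs1) is a matrix protein of platelet granules that many myeloid cells also make. In injured lung, fibrin and tissue factor are known to build up in air spaces and vessels, and monocytes and macrophages are known sources of several of these proteins.

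These 9 genes were followed in single-cell RNA-Seq of lung leukocytes. They were chosen by name as genes of coagulation and fibrinolysis, with earlier results of these data known. They were matched by symbol to the gene list of each library, 9 of 32285 genes. All 9 had counts in the kept cells of each library. The study collected 3 libraries, 1 per condition, each from the pooled cells of 2 mice aged 8 to 10 weeks. The naive library came from left lungs of naive C57BL/6J (B6) mice. The other libraries came from left lungs of CD45.2 B6 donors, kept for 60 minutes in the cold and then 45 minutes warm, grafted into CD45.1 B6 recipients and reperfused for 2 hours or for 3 days. Cells bearing CD45.1, the recipient form of this leukocyte antigen, were sorted from the grafts, while naive C57BL/6J mice hold no recipient cells and the labels do not name the gate used for them. As each condition had 1 library, no p-value is given, and a difference between libraries cannot be told apart from one in mice, cell preparation or sorting. The naive library also held no antibody features and was written by another version of the counting software than the graft libraries. The labels leave unclear which sequencing kit made each library. These differences cannot be told apart from condition either. The intervals below are 95% intervals that cover counting error only.

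The kept cells numbered 2422 (naive), 10283 (2 hours) and 8324 (3 days), with median counts of unique transcripts (unique molecular identifiers, UMIs) of 7298.5, 878 and 5716.5 per cell. Between 1 and 23 cell barcodes were shared by each pair of libraries. Clusters were named from marker genes and gathered into lineages. The monocytes were 141 naive cells, 444 cells at 2 hours and 1217 cells at 3 days, and the neutrophils were 388, 4398 and 2414 cells. The macrophages were 107 naive cells and 800 cells at 3 days. The 2-hour library held only 5 macrophages, too few for a level. The endothelial-like cells were 94, 52 and 339 cells, and the lymphocytes were 1649, 5245 and 3290 cells. Monocytes, macrophages and neutrophils lay mostly in different clusters in each library, whereas the endothelial-like cells of all 3 libraries lay in 1 cluster. Naive monocytes lay in cluster 26, 2-hour monocytes in cluster 15, and 3-day monocytes in clusters 8 (classical-like, 765 cells) and 16 (nonclassical-like, 433 cells). Cluster 15 carried the markers of both kinds, with median log2 scores of 2.84 for the nonclassical and 2.64 for the classical list. So did cluster 26, with 3.43 for the nonclassical and 4.12 for the classical list. The monocyte levels below pool these kinds. All but 5 of the naive macrophages were alveolar-like (cluster 27), whereas the 3-day macrophages were an Arg1 and Saa3 cluster (cluster 10, 635 cells) and a C1q cluster (cluster 25, 165 cells). Naive and 3-day macrophages were therefore different kinds of cell by their markers. Naive neutrophils lay in cluster 18, 2-hour neutrophils in clusters 0, 5 and 19, and 3-day neutrophils in clusters 1 and 22. The endothelial-like cluster was of a cell type that a sort for a leukocyte antigen would remove. It had UMIs of 12 of 12 endothelial markers in each library, summing to 7728, 5690 and 5335 CPM. Epithelial markers, 10 of 10 in each library, summed higher, to 9403, 26239 and 6074 CPM. Most of this was Sftpc, a surfactant gene of epithelial cells, at 7278, 20968 and 4673 CPM. Without the upper limit on UMIs per cell, the cluster led by Sftpc was left unnamed, as lists of more than 1 lineage stood out. Levels are in CPM, the UMIs of a gene per 1000000 UMIs of all genes over the cells of a lineage, and comparisons between libraries as log2 ratios of CPM.

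**Figure D1:**
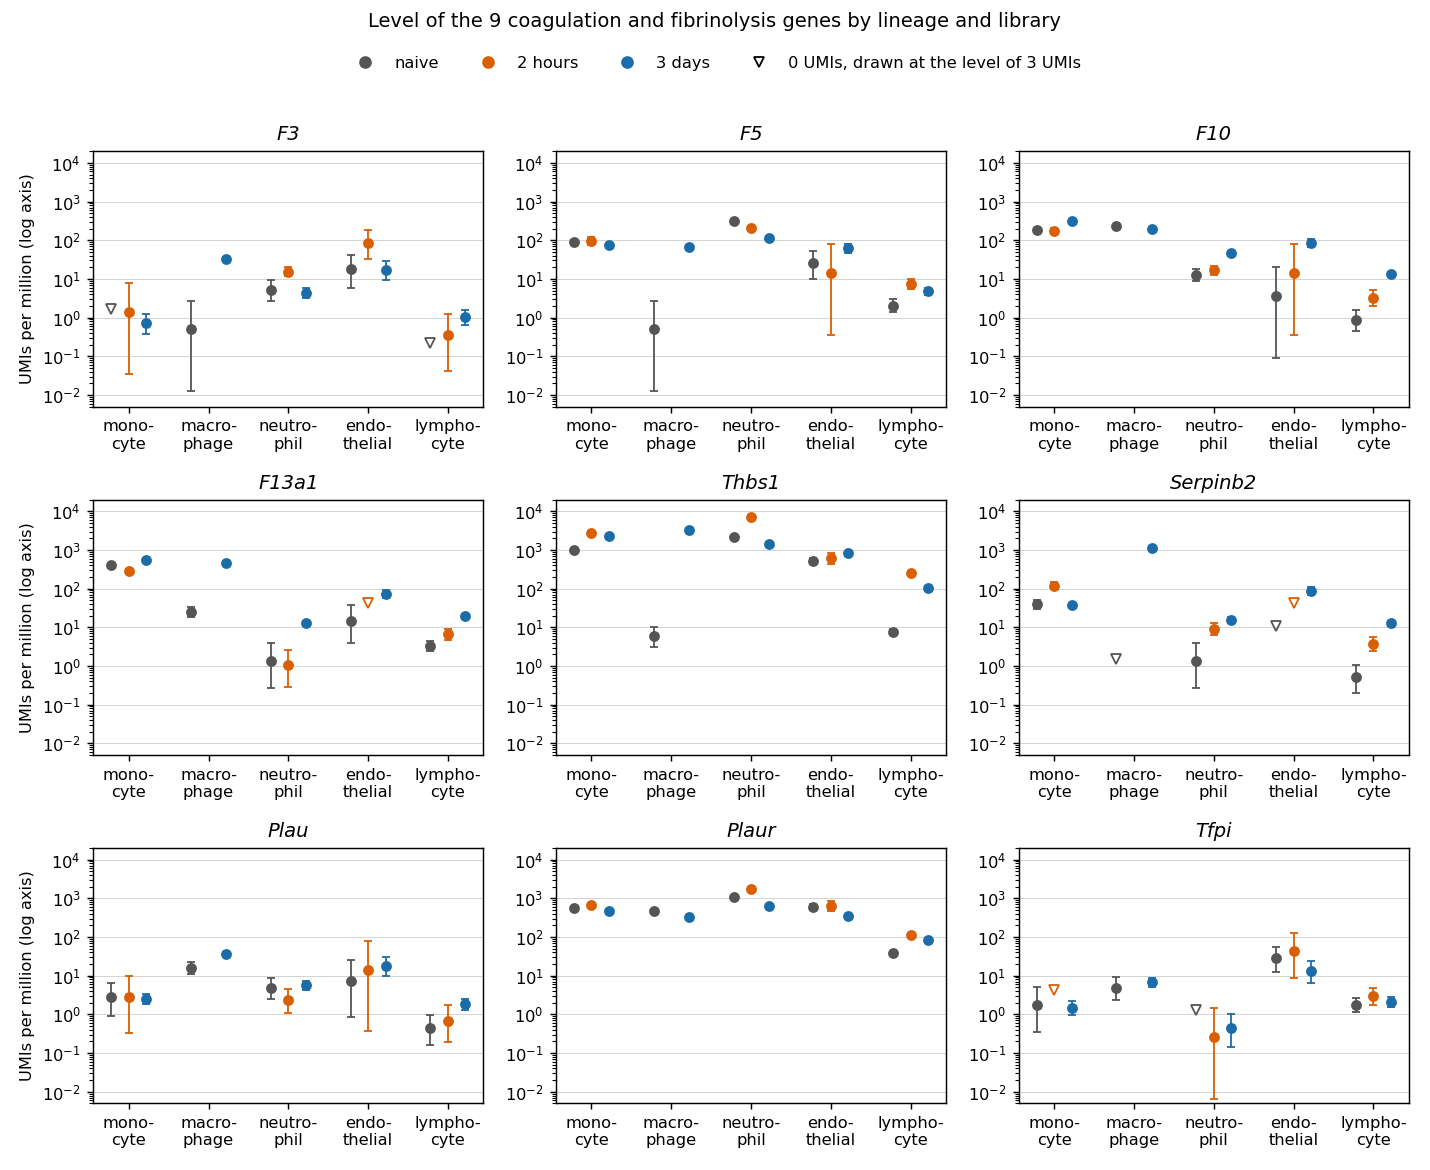
CPM (log axis) of each gene in 5 lineages, with 1 point per library (gray naive, orange 2 hours, blue 3 days) and 95% Poisson intervals. Open triangles mark 0 UMIs and stand at the level that 3 UMIs would give, and the 5 macrophages at 2 hours are left out. Thbs1 is highest in 2-hour neutrophils at 6964 CPM, and Serpinb2 stands at 1099 CPM in 3-day macrophages and at 0 in naive ones.

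RefSeq promoter sequence on GRCm38.p6 was at hand for 7 of the 9 genes, with Thbs1 and Plau the others. The 250 bases before the start site were searched on both strands for 6 motifs: AP-1 (TGANTCA, the site of Fos and Jun factors), EGR1 (GCGNGGGCG), C/EBP (TTGCNNAA), PU.1 (GAGGAAGT), hypoxia (ACGTG) and NF-kB. AP-1 letters were present in F3 (at 146 and 135 bases before the start), in Serpinb2 (at 94 bases before the start shown and in the window of its other start) and in Plaur (at 69 bases), and were not in the windows of F5, F10, F13a1 and Tfpi. Of 32851 promoter windows of the same length, 6.75% held them. C/EBP letters were in Serpinb2 and Plaur (9.56% of all windows), EGR1 letters in Plaur (4.70%) and hypoxia letters in F10 (16.6%), and no member held PU.1 (2.44%) or NF-kB (3.90%) letters. A match is a description of the letters and not a site in use. A link between these letters and the levels below was not tested. Thbs1 and Plau had no window to search. The windows of the 3 genes with AP-1 letters are shown, and 1 window of F13a1, the monocyte gene, beside them. They run from 5′ to 3′ on the gene's strand, with AP-1 motifs in capitals.
F3, chr3:121723287-121723536, plus strand: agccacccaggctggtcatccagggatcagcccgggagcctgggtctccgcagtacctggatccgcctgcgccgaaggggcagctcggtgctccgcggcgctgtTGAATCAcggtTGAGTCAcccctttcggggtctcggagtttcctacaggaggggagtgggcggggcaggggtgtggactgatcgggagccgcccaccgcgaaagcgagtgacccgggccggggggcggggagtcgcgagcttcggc
Serpinb2, chr1:107511173-107511422, plus strand: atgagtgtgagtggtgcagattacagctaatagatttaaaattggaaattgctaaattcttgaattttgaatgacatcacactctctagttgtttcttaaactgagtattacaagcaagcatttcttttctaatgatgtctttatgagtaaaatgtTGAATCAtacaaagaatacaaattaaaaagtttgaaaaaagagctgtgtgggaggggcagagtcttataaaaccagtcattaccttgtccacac
Plaur, chr7:24462233-24462482, plus strand: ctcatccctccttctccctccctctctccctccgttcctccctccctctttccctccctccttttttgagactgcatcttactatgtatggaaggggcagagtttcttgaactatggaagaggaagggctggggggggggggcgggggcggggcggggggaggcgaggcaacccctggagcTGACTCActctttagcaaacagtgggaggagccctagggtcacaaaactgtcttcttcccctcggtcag
F13a1, chr13:37049214-37049463, minus strand: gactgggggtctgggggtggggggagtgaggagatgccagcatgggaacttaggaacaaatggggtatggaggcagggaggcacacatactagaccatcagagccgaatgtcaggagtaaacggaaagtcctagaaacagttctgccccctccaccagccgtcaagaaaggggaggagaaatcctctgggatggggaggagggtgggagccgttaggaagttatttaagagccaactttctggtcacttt

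F3, the cell-surface trigger of clotting, lies at chr3:121723537-121735048. In macrophages its level was 0.493 CPM in the naive library (1 UMI) and 32.5 CPM at 3 days (303 UMIs). In neutrophils it was 5.31 (naive), 15.5 (2 hours) and 4.33 CPM (3 days). The 2-hour interval for neutrophils lay above both others without overlap, with a log2 ratio of 1.55 (0.64 to 2.58) against naive. The cells that held most F3 UMIs differed between the graft libraries. Neutrophils held 66.7% of its 18 UMIs in the naive library and 87.0% of its 69 UMIs at 2 hours. Macrophages held 74.8% of its 405 UMIs at 3 days, whereas the 2-hour library held only 5 macrophages. Neutrophils were 42.8% of the cells at 2 hours, and macrophages 9.61% of the cells at 3 days. Monocytes were near 0 in each library, with 0, 1 and 12 UMIs. The 3-day macrophages did not share F3 evenly. The Arg1 and Saa3 cluster had 44.7 CPM, with a UMI in 17.0% of its cells, against 1.52 CPM in the C1q cluster and 0.612 CPM in classical-like monocytes. Lymphocytes of that library, which should lack the gene, had a UMI in 0.699% of cells at 1.04 CPM, with a median depth of 5677 UMIs per cell against 10955 for the macrophages. The promoter of F3 was the one with a pair of AP-1 motifs in the sequences shown.

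Tfpi, which blocks tissue factor with factor VII, lies at chr2:84432855-84476775 and was the member with the fewest UMIs in the naive library after F3. Its highest levels were in endothelial-like cells, the known source of the protein, at 28.8 (naive), 43.3 (2 hours) and 13.3 CPM (3 days). These rested on 8, 3 and 11 UMIs, and the 3 intervals overlapped. In macrophages Tfpi was at 4.93 and 6.75 CPM in the naive and 3-day libraries, a log2 ratio of 0.45 with an interval of -0.52 to 1.58. In monocytes and neutrophils it did not exceed 1.71 CPM. The filters on cells took out 64.3% of the naive UMIs of Tfpi, and its kept naive macrophage level rests on 10 UMIs. Without the upper limit on UMIs per cell, naive macrophages had 82 UMIs (10.4 CPM) against 6.24 CPM at 3 days, the reverse order.

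F5 makes the cofactor of active factor X and lies at chr1:164151838-164220277. In neutrophils it was at 307 (naive), 210 (2 hours) and 118 CPM (3 days), in that order and with no overlap of the intervals. F5 has 61.0 kb of introns, and after the median of genes with introns of like length was subtracted, the log2 ratio of 2 hours against naive went from -0.54 to 0.01. The log2 ratio of 3 days against naive neutrophils was -1.38 (-1.52 to -1.25). Monocytes were at 88.7, 97.1 and 74.1 CPM, and their 3 intervals overlapped. The log2 ratios of 3 days were -0.26 (-0.50 to -0.01) against naive and -0.39 (-0.74 to -0.02) against 2 hours, with intervals just below 0. After the same subtraction, the monocyte ratios against naive went from 0.13 to 0.88 at 2 hours and from -0.26 to 0.16 at 3 days. In macrophages the direction was opposite to that in neutrophils. Levels were 0.493 CPM (1 UMI) in the naive and 65.2 CPM (608 UMIs) in the 3-day library, a log2 ratio of 7.05 (4.56 to 12.35). That ratio has a single naive UMI behind it. It was 0.13 when each cell was called by its own markers and 4.17 without the upper limit on UMIs per cell. With each cell thinned to 500 UMIs, 0% of naive macrophages held F5, so the 0.21 found there is a lower bound set at 3 UMIs. At 3 days, F5 was at 87.1 CPM in the Arg1 and Saa3 macrophages, 87.8 CPM in the classical-like monocytes and 9.48 CPM in the C1q macrophages. Nonclassical-like monocytes of that library had 23.8 CPM. Neutrophils held 76.9%, 87.0% and 39.9% of all F5 UMIs in the naive, 2-hour and 3-day libraries.

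F10, the factor at which the clotting pathways meet, lies at chr8:13037308-13056676. In monocytes it was at 184 (naive), 171 (2 hours) and 318 CPM (3 days). The first 2 values had overlapping intervals and the third lay above them, with a log2 ratio of 0.90 (0.64 to 1.17) against 2 hours. At 3 days the classical-like cells had 363 CPM and the nonclassical-like cells 155 CPM, beside 162 CPM in the 2-hour cells named nonclassical. Under other processing choices, the ratio against naive ranged from -1.53 to 0.11 at 2 hours and from 0.09 to 1.17 at 3 days. For 3 days against 2 hours it ranged from 0.67 to 2.70. In macrophages F10 was at 228 and 200.4 CPM in the naive and 3-day libraries, a log2 ratio of -0.19 (-0.33 to -0.04), although the kinds of macrophage differed. All 463 naive macrophage UMIs of F10, 55.9% of those in kept naive cells, lay in the alveolar-like cells, and the filters on cells took out 58.2% of all naive F10 UMIs. Without the upper limit on UMIs per cell the naive macrophages were 278 cells with 199 CPM. In neutrophils F10 was at 12.8, 16.8 and 45.8 CPM. The 3-day value was uneven: cluster 22, a small group of 255 cells, had 292 CPM, against 20.4 CPM in the 2146 cells of cluster 1. Without clusters 19 and 22, the log2 ratio of 3-day against naive neutrophils was 0.67 in place of 1.83. Cluster 22, led by Tnf, Il1f9 and Csf1, also had 39.1 CPM of Plau, against 2.20 CPM in cluster 1. Its median log2 score for the neutrophil list was 2.62, against 4.75 in cluster 1, and it had Siglecf at 273 CPM, against 18.2 CPM.

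F13a1 makes the factor XIII A subunit and lies at chr13:36867178-37050244. It was a monocyte gene in each library: monocytes held 86.1% (naive), 78.2% (2 hours) and 65.1% (3 days) of its UMIs, while they were 5.82%, 4.32% and 14.6% of the cells. In monocytes its level was 408, 283 and 564 CPM. The 2-hour level was the lowest, and the 3-day level was 1.99 times the 2-hour level, just under the 2-fold line (log2 ratio 0.99). Neutrophils were at 1.33, 1.03 and 12.7 CPM, and naive and 3-day macrophages at 25.1 and 458 CPM, where the naive value is 51 UMIs in 3 cells. At 3 days the gene split the monocytes, with 713 CPM and a UMI in 93.5% of cells in the classical-like cluster against 7.79 CPM and 4.16% of cells in cluster 16. Lymphocytes of the same library had 19.1 CPM and a UMI in 4.83% of cells, so cluster 16 was not above that background. The C1q macrophages (665 CPM) came near the classical-like monocytes, and the Arg1 and Saa3 macrophages had 377 CPM. No UMI of F13a1 was found in the alveolar-like cells of the naive library. F13a1 has the longest introns of the 9 genes, 176 kb in all, and the naive library, written by a later version of the counting software, had more counts in long-intron genes. For monocytes, 2 hours against naive, the median log2 ratio over genes whose introns exceed 100 kb was -1.80, and after subtracting it the F13a1 ratio turned from -0.53 to 1.27. For 3 days against naive, the same kind of subtraction took the F13a1 ratio from 0.47 to 1.85.

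**Figure D2:**
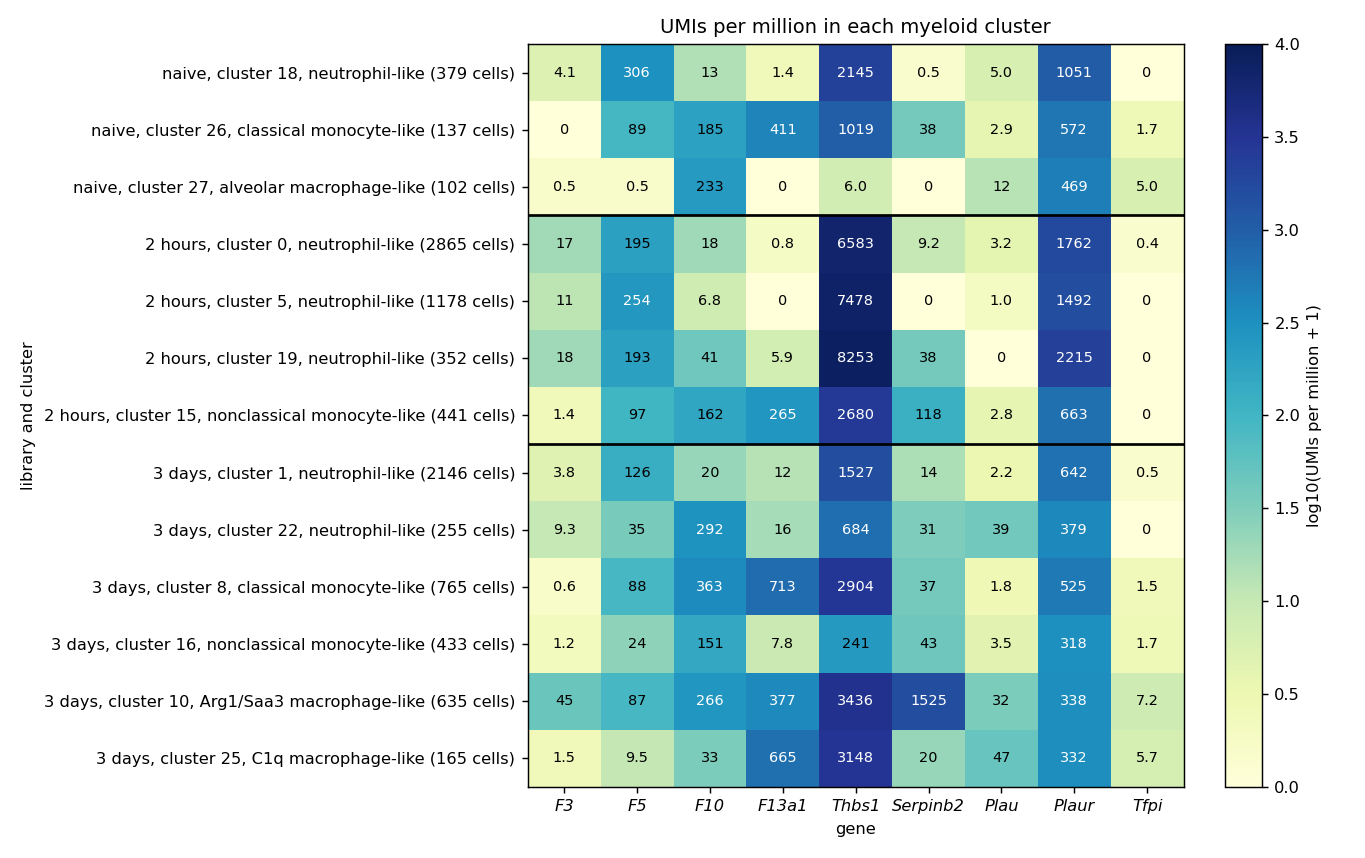
CPM of the 9 genes in each myeloid cluster with most of a library's neutrophils, monocytes or macrophages. The printed number is the CPM, the color is log10(CPM + 1), and the black lines separate the naive, 2-hour and 3-day libraries. Serpinb2 (1525 CPM) and F3 stand out in cluster 10, F10 in clusters 8 and 22, and F13a1 in clusters 8 and 25.

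Thbs1, whose protein activates latent TGF-beta and binds CD36 and CD47, lies at chr2:118111876-118127133. In neutrophils it was at 2174 (naive), 6964 (2 hours) and 1449 CPM (3 days). The 2-hour neutrophils were far above both others, with a log2 ratio of 1.68 (1.64 to 1.72) for 2 hours against naive and of -2.26 (-2.29 to -2.24) for 3 days against 2 hours. The 3 neutrophil clusters at 2 hours had 6583, 7478 and 8253 CPM, so the high level was common to them. A Thbs1 UMI was found in 85.2% of 2-hour neutrophils, although they were the shallowest, with a median of 751 UMIs per cell. Thinned to 500 UMIs per cell, 44.1% of naive, 81.0% of 2-hour and 33.7% of 3-day neutrophils had one. In monocytes Thbs1 was at 1012, 2732 and 2345 CPM. Both graft libraries were above the naive one there, by log2 ratios of 1.43 (1.34 to 1.53) and 1.21 (1.14 to 1.28). The second ratio was 0.87, under 2-fold, after the median of genes with introns of like length was subtracted. Neutrophil markers in the monocytes summed to 1170, 6707 and 2125 CPM, with 12, 12 and 13 of 13 markers present, and so were also highest at 2 hours, and their part in the monocyte values was not tested. At 3 days the classical-like monocytes had 2904 CPM and the nonclassical-like cells of that library 301 CPM. The naive macrophages had 5.91 CPM (12 UMIs), a level near the 7.62 CPM of naive lymphocytes, and the 3-day macrophages 3355 CPM. Without the upper limit on UMIs per cell, the naive macrophages had 32.5 CPM (257 UMIs) and the naive lymphocytes 12.6 CPM. Macrophages of both 3-day kinds were high, with 3436 CPM in the Arg1 and Saa3 cluster and 3148 CPM in the C1q cluster. The cells holding the transcript also differed: neutrophils held 87.8% of its 30658 UMIs at 2 hours, and monocytes and macrophages held 43.1% and 34.5% of its 90634 UMIs at 3 days. Platelet markers summed to 8.28 to 27.9 CPM in neutrophils and 7.21 to 12.5 CPM in monocytes. In macrophages they summed to 111 (naive) and 575 CPM (3 days). Nearly all of the 3-day sum was Pf4, at 586 CPM in the Arg1 and Saa3 macrophages and 521 CPM in the C1q macrophages. Another gene of the list, Ppbp, was at 2.39 and 4.93 CPM in them. In endothelial-like cells the platelet markers summed to 555, 86.6 and 808 CPM, beside Thbs1 at 522, 607 and 822 CPM there. At least 1 UMI of a shorter platelet list, without Pf4, was found in 0.225% to 6.54% of the cells of a lineage. Removing those cells moved no count of genes past 2-fold, which does not bear on Pf4.

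**Figure D3:**
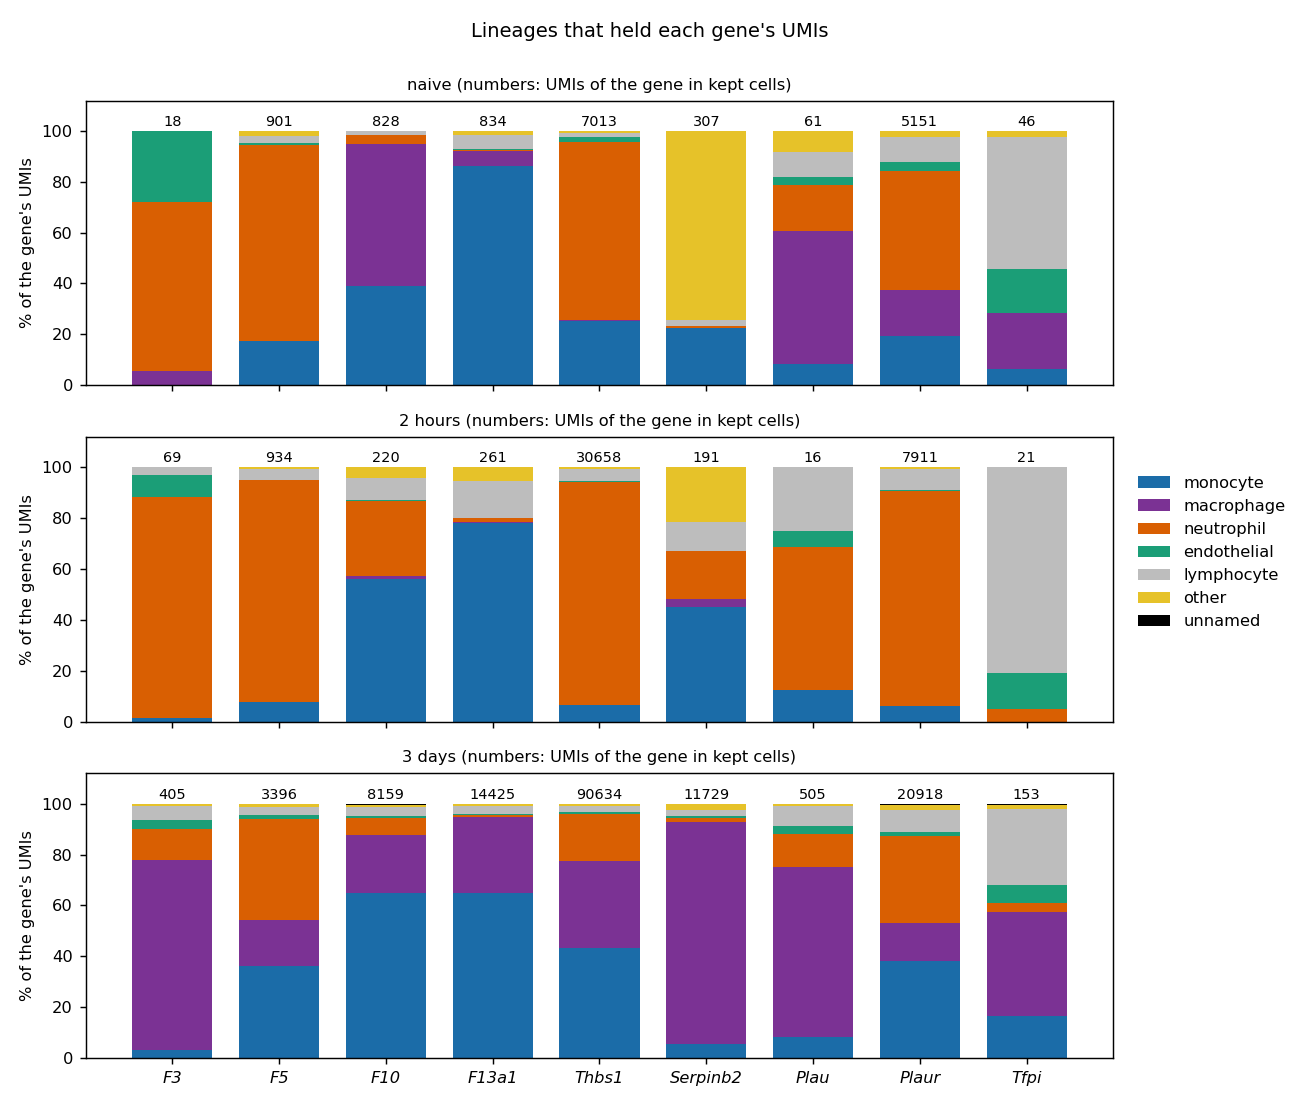
Share of each gene's UMIs (percent) held by each lineage in each of the 3 libraries, with the number of UMIs above each bar. Thbs1, F5 and Plaur are mostly neutrophil at 2 hours, F13a1 is mostly monocyte throughout, and Serpinb2 is 87.5% macrophage at 3 days.

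Plau and Plaur, which bring plasminogen activation to the cell surface, behaved differently. Plaur, the urokinase receptor, lies at chr7:24462484-24475968. In neutrophils it was at 1069 (naive), 1731 (2 hours) and 619 CPM (3 days). This was the order seen for Thbs1, and the log2 ratio of 3 days against 2 hours was -1.48 (-1.53 to -1.44). In monocytes Plaur varied little, at 569, 662 and 481 CPM, and in macrophages it was 460 and 336 CPM. Endothelial-like cells had 602, 650 and 353 CPM. B cells were above T cells of the same library by log2 ratios of 1.80, 1.78 and 1.94. At 2 hours B cells were also above T cells for F13a1 (3.08), F10 (4.07) and Serpinb2 (4.30), and 1 B-like cluster, cluster 17 with 300 cells at 2 hours, carried nonclassical monocyte markers at a median log2 score of 2.04. Its part in these values was not tested. Neutrophils held 84.6% of Plaur UMIs at 2 hours, and monocytes and neutrophils held 38.3% and 34.1% at 3 days.

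Plau, at chr14:20836660-20843385, was scarce. Its UMIs numbered 61 (naive), 16 (2 hours) and 505 (3 days). Macrophages had the highest lineage levels with enough counts, at 15.8 CPM in the naive and 36.2 CPM in the 3-day library, 2.30 times as high (interval of the log2 ratio 0.68 to 1.77). The C1q cluster had 46.6 CPM and the Arg1 and Saa3 cluster 32.1 CPM, whereas classical-like monocytes had 1.84 CPM. In neutrophils it was at 4.87, 2.33 and 5.63 CPM. The 2-hour value rests on 9 UMIs and the naive one on 11, and the interval of their log2 ratio, -2.51 to 0.34, holds 0.

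Serpinb2, the intracellular and secreted inhibitor of urokinase, lies at chr1:107511423-107535478. In macrophages it was at 0 in the naive library, where 3 UMIs would be 1.48 CPM, and at 1099 CPM at 3 days (10258 UMIs). Set against that floor of 3 UMIs, the 3-day level was at least 744-fold higher. That bound depends on which cells are kept. Without the upper limit on UMIs per cell, 278 naive macrophages had 75 UMIs (9.48 CPM) against 974 CPM at 3 days, a log2 ratio of 6.68. The ratio was 5.99 with cells called by their own markers. With cells thinned to 500 UMIs it was at least 4.37, again a bound set at 3 UMIs. The 3-day signal was nearly all in 1 cluster: the Arg1 and Saa3 macrophages had 1525 CPM and a UMI in 70.2% of cells, and the C1q macrophages had 20.5 CPM, not far above the 12.6 CPM of lymphocytes. In monocytes Serpinb2 was at 39.2 (naive), 119 (2 hours) and 38.3 CPM (3 days). The 2-hour monocytes were above both others, with log2 ratios of 1.60 (1.13 to 2.08) against naive monocytes and, for 3 days against 2 hours, -1.64 (-1.97 to -1.30). When each cell was called by its own markers, these ratios were 0.26 and -0.39. In neutrophils it was at 1.33, 9.31 and 15.6 CPM. Lymphocytes had the same order, at 0.513, 3.81 and 12.6 CPM. Cells outside the 5 lineages held 74.3% of the 307 naive UMIs, of which 224 UMIs lay in a cluster of basophil-like and mast-cell-like cells. That cluster had 1413 CPM in 20 naive cells, 449 CPM in 68 cells at 2 hours and 360 CPM in 111 cells at 3 days, where a UMI was found in 40.0%, 8.82% and 19.8% of cells. The AP-1 motif of the Serpinb2 promoter is shown above. In endothelial-like cells, the gene was at 0 in the naive and 2-hour libraries and at 89.2 CPM at 3 days.

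**Figure D4:**
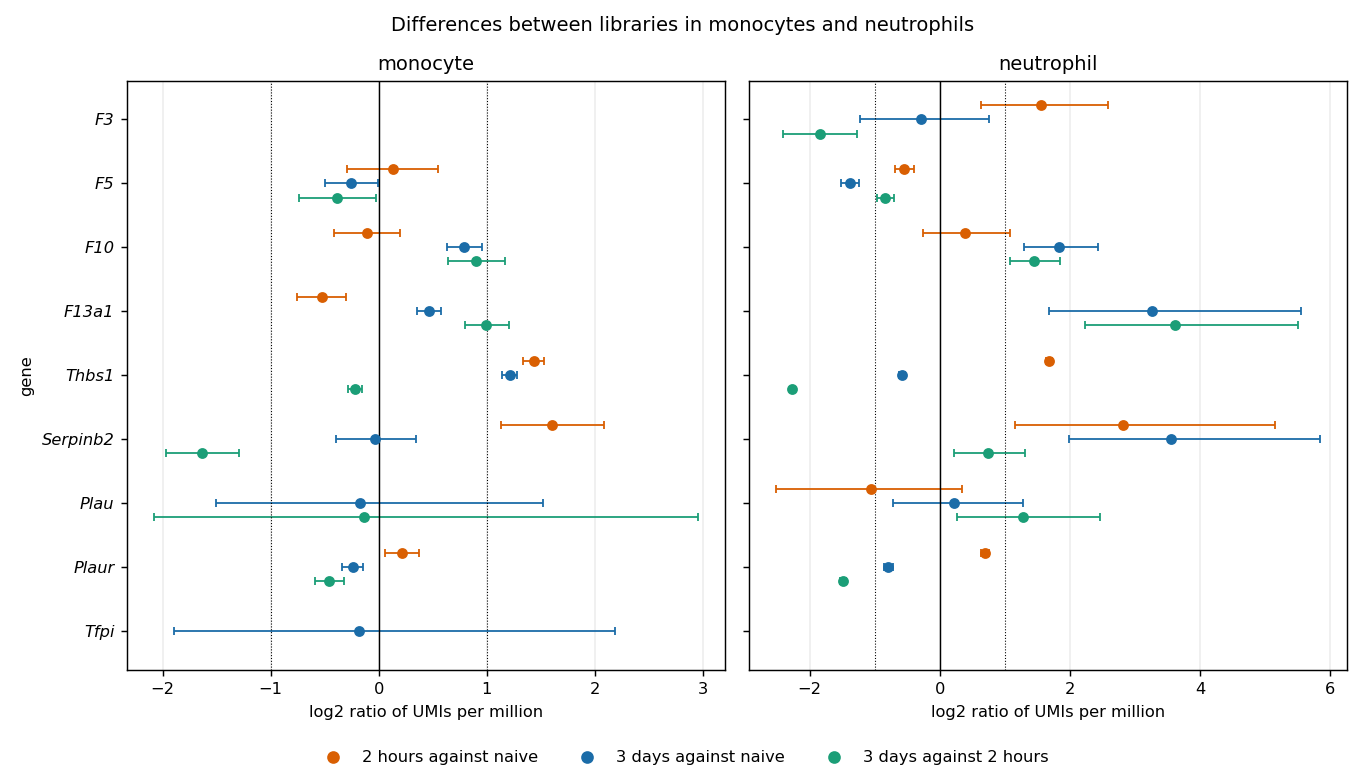
Log2 ratios of CPM between libraries in monocytes and neutrophils for members with at least 20 UMIs over both libraries, with 95% intervals for counting error. Dotted lines mark 2-fold. Thbs1 in neutrophils lies at 1.68 for 2 hours against naive and -2.26 for 3 days against 2 hours, while F10 and F13a1 lie to the right of 0 at 3 days.

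Counted over the 9 genes, the lineages differed. As the genes were chosen with earlier results of these data known, the counts beside the shares of all genes are descriptions. At least 20 UMIs over both libraries were required, and a gene was counted when it was at least 2-fold higher or lower. A gene could therefore meet the limit through the library where it was high. In monocytes at 2 hours against naive, 2 of 6 genes were higher (Thbs1 and Serpinb2) and 0 lower, while 8.33% of 8040 genes tested were higher and 28.7% lower. The median log2 ratio was 0.17 for the members and -0.36 for all genes tested. For 3 days against naive, 1 of 8 members was higher (Thbs1) and 0 lower, against 7.94% and 16.3% of all genes. After the median of genes with introns of like length was subtracted, Thbs1 was at 0.87 and F13a1 at 1.85, so F13a1 was past 2-fold in place of Thbs1. At 3 days against 2 hours, 0 of 7 were higher and 1 was lower (Serpinb2), against 15.9% and 9.53%. Tfpi, with 25 UMIs at 3 days and 0 at 2 hours, gave no usable bound and was left out of the 7. Such genes stayed in the totals of all genes tested. These comparisons share the same libraries and are not independent.

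In macrophages at 3 days against naive, 6 of 9 members were higher and 0 lower, while 14.8% of 10883 genes were higher and 24.2% lower. The 6 were F3, F5, F13a1, Thbs1, Serpinb2 and Plau, and F10, Plaur and Tfpi were within 2-fold. F3, F5, Thbs1 and Serpinb2 met the limit of 20 UMIs only through the 3-day cells, with 1, 1, 12 and 0 naive UMIs. The median log2 ratio was 4.19 for the members and -0.21 for all genes tested. The naive and 3-day macrophages were of different kinds, and kind and condition cannot be told apart here. When each cell was called by its own markers, the log2 ratios were smaller, at 0.13 for F5, 2.42 for Thbs1, 5.99 for Serpinb2 and 0.78 for F13a1, while F3 was at 6.06. In neutrophils at 2 hours against naive, 3 of 7 members were higher (F3, Thbs1 and Serpinb2), against 12.3% of all genes, and 1 was lower (Plau, with an interval that holds 0), against 22.8%. At 3 days against naive, 3 of 8 were higher (F10, F13a1 and Serpinb2), against 18.4%, and 1 was lower (F5), against 13.6%. The Serpinb2 ratio was 3.56, with 3 naive UMIs, and 1.19 after the lymphocyte CPM was subtracted. F13a1 in 3-day neutrophils, at 12.7 CPM, lay below the 19.1 CPM of lymphocytes of that library (log2 ratio -0.60, -0.88 to -0.32). Those lymphocytes were uneven, with 28.9 CPM in B cells, 8.64 CPM in T cells and 10.0 CPM in natural killer cells. Without the upper limit on UMIs per cell, lymphocytes had 7.86 CPM, below the 12.9 CPM of neutrophils. The place of F13a1 among the higher genes, here and against 2 hours, thus rests on a level close to that of lymphocytes. At 3 days against 2 hours, 3 of 8 were higher (F10, F13a1 and Plau), against 21.5%, and 3 were lower (F3, Thbs1 and Plaur), against 7.11%. F3 and Thbs1 were past 2-fold in both comparisons with the 2-hour neutrophils, which had the higher level each time. For F3 the naive level rests on 12 UMIs. Under other processing choices, its log2 ratio of 2 hours against naive ranged from 0.78 to 1.65.

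Lymphocytes served as cells that should lack most of these genes. Thbs1 in them was at 7.62 CPM in naive and 261 CPM in 2-hour cells, and lower again at 3 days, by a log2 ratio of -1.36. At 2 hours a Thbs1 UMI was found in 6.37% of lymphocytes, at a median of 967 UMIs per cell, against 85.2% of neutrophils. In the lymphocytes 5 of 7 members were at least 2-fold higher and 0 lower at 2 hours than in the naive library, against 8.59% and 32.9% of all genes, and 8 of 9 were higher and 0 lower at 3 days, against 7.5% and 23.6%. At 3 days against 2 hours, 5 of 9 were higher (16.1% of all genes) and 1, Thbs1, was lower (8.16%). Free RNA from lysed cells is a known source of such counts, and its part in the values was not tested. At 2 hours F10 and Serpinb2 had 17 and 20 UMIs in B cells, against 2 and 2 in T cells. Without the upper limit on UMIs per cell, 2-hour lymphocytes had 0.535 CPM of F10, against 0.722 CPM in naive ones. Serpinb2 was then at 1.07 and 0.289 CPM. The part of the B-like cluster 17, which carried nonclassical monocyte markers, was not tested. With the lymphocyte CPM of the same library subtracted, the Thbs1 and Plaur ratios of neutrophils kept their direction. In endothelial-like cells 0 of 2 members with enough UMIs were 2-fold higher or lower at 2 hours (10.4% and 35.7% of all genes). At 3 days against naive 4 of 6 were higher (16.9%) and 0 lower (18.8%). The 4 were F5, F10, F13a1 and Serpinb2. Against 2 hours, 3 of 7 were higher at 3 days (19.4%) and 1, F3, was lower (10.0%). The neutrophil markers in these cells summed to 234, 1069 and 13746 CPM in the 3 libraries, higher with those members. Other lists were higher there too, with the Arg1 and Saa3 list at 295, 375 and 2810 CPM, the C1q list at 292, 231 and 1138 CPM and the classical monocyte list at 357, 505 and 1098 CPM. Their part was not tested.

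Of 44 further genes of the pathway, 19 passed 50 CPM in a lineage, and those described are from the 12 highest. In macrophages at 3 days against naive, 4 of 22 pathway genes with enough UMIs were at least 2-fold higher and 9 lower, beside 14.8% and 24.2% of all genes. F7, the partner of tissue factor, was at 235 and 83.9 CPM, and Pros1, protein S, a cofactor of the protein C anticoagulant, at 180 and 74.6 CPM. Thbd, thrombomodulin, which turns thrombin toward protein C, was higher at 3 days, at 59.1 against 5.91 CPM. Vwf, the platelet-binding factor of endothelium, was at 58.1 and 2.14 CPM in macrophages, and at 800, 86.6 and 140 CPM in endothelial-like cells. In the 52 endothelial-like cells at 2 hours, 3 UMIs would be 43.3 CPM. Ano6, the scramblase that exposes procoagulant lipid, was lower at 3 days in macrophages, with a log2 ratio of -3.51, in monocytes (-1.96) and in neutrophils (-2.57), all against naive. These 3 ratios, like the Vwf levels, were not corrected for intron length. Over genes whose introns exceed 100 kb, the median log2 ratios of the same comparisons were -1.36, -1.38 and -1.15.

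In monocytes 0 of 14 pathway genes were at least 2-fold higher and 4 lower at 2 hours against naive, beside 8.33% and 28.7% of all genes, so the share lower was that of all genes. Against 2 hours, 5 of 20 were higher at 3 days and 2 lower, beside 15.9% and 9.53%. Cd36, a receptor for thrombospondin 1, was at 373, 508 and 105 CPM in the 3 libraries. Cd47, another receptor for it, stayed at 547, 700 and 590 CPM. S100a10 and Anxa5 were higher at 3 days than at 2 hours, by log2 ratios of 1.12 and 1.24. Lrp1, an uptake receptor for many proteases, was at 387, 294 and 460 CPM. In neutrophils at 3 days against 2 hours, 10 of 20 were higher and 1 lower, beside 21.5% and 7.11% of all genes. Anxa2, which holds plasminogen at the surface with S100a10, was at 468 CPM in 2-hour and 1122 CPM in 3-day cells, the reverse of the order of Plaur. Thbd in neutrophils was at 15.9, 51.2 and 53.7 CPM.

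The genes with the most similar pattern were sought by Pearson's r of log2(CPM + 10) over 26 combinations of cell type and library, which share libraries and depth, so r is a description only. For F13a1 the closest were Serpinb8 (0.90), Msr1 (0.89) and Nrg1 (0.88), and for F5 they were Hp (0.90), Tarm1 and Tlr6. For Thbs1 they were Marcks (0.88), Card19 and Ifitm2, and for Plaur Mir22hg (0.88), Trib1 and Lamp2. Serpinb2 was closest to Ccl9 (0.86), C3ar1 and Adora2b, and F10 to Mfsd7a (0.90), Gpx1 and Plod3. F3 was closest to Akr1b8 (0.86), Jam2 and Vasn, Plau to Igf1 (0.91), Pf4 and Stab1, and Tfpi to Vasn (0.96), Git1 and Me1. For F3 and Tfpi the endothelial-like cells, with few UMIs, are among the highest of the 26.

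Within the 3-day library, cells shared preparation and counting software but not depth per cell (medians of 14732 UMIs in monocytes, 10955 in macrophages and 4427 in neutrophils). There the myeloid kinds differed in several of the 9 genes. Classical-like monocytes were above nonclassical-like ones by log2 ratios of 5.38 (5.02 to 5.77) for F13a1, 3.27 (3.18 to 3.36) for Thbs1, 1.88 for F5 and 1.23 for F10. The nonclassical-like cells here include 19 cells of cluster 15 and had 17.1 CPM of F13a1, against 7.79 CPM in cluster 16 alone. Serpinb2 did not separate them, at -0.19 (-0.45 to 0.09). Arg1 and Saa3 macrophages were above C1q macrophages 74.5-fold for Serpinb2 and 29.5-fold for F3, with log2 ratios of 3.20 for F5 and 3.01 for F10. The reverse held for F13a1 (-0.82) and Plau (-0.54, -0.86 to -0.21), and Plaur was level between them at 0.02 (-0.09 to 0.14). Thus the trigger, the cofactor, factor X and the plasminogen activator inhibitor were higher in the Arg1 and Saa3 kind. The cross-linking factor and urokinase were higher in the C1q kind, but only 1.76-fold and 1.45-fold, under the 2-fold line. Thbs1 was near level, at a log2 ratio of 0.13 (0.09 to 0.16), and the interval of Tfpi held 0 (0.34, -0.53 to 1.28). Against classical-like monocytes, the Arg1 and Saa3 macrophages had an F5 log2 ratio of -0.01 (-0.16 to 0.13). Neutrophils were above monocytes for Thbs1 at 2 hours, by 1.35 (1.28 to 1.42), and below them at 3 days, at -0.69 (-0.72 to -0.67).

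The 9 genes were among those that placed the cells in clusters, and F13a1, Thbs1 or Serpinb2 were in the top 10 genes of clusters 8, 10, 15, 18 and 26, so differences between clusters of 1 library are descriptions. Clustering without the 9 genes gave nearly the same lineages. It kept 1210 of 1217 monocytes and 800 of 800 macrophages at 3 days, and 4383 of 4398 neutrophils at 2 hours.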

How the data were processed

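Single-cell RNA-Seq was done on 3 libraries, 1 per condition. The authors deposited UMI counts per gene and cell, made with Cell Ranger on mm10. Per the file headers, Cell Ranger 7.1.0 wrote the naive counts and 6.0.0 both graft libraries. No source used here states how reads in introns were treated. A cell was kept if it had over 200 but fewer than 6000 genes, fewer than 25000 UMIs and a mitochondrial share below 10%. They were clustered with Seurat 5.3.0 and sctransform 0.4.2 in R 4.3.3 (30 components, resolution 0.8), each library labelled by its GEO treatment, and clusters were named from marker lists. Doublets called by Scrublet (scanpy 1.11.5; 40, 403 and 277 cells) were kept, and removed as an alternative. UMIs were summed per lineage and library in Python 3.11.15 with numpy 2.4.6, scipy 1.17.1 and pandas 2.3.3. Levels carry exact Poisson intervals, shares of cells Clopper-Pearson intervals, and ratios exact intervals conditional on the total count, all at 95%. UMI totals were 28538529, 10749100 and 70750470. A sum of 0 was set to 3 UMIs for a bound. The ratio step was tested on simulated data.

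All 9 members are named, with the 12 highest of the pathway genes past 50 CPM, and the 3 genes most like each member. 1 of these pathway genes is not reported here. The members and lists were chosen with earlier results of these data known. The alternatives, of which 11 were planned and 3 were chosen after seeing the data, varied the cell limit, naming, clustering, doublets, scaling, thinning, background, intron length and platelet-bearing cells. Gene positions come from GENCODE on GRCm38, which matched 32158 of 32285 gene identifiers, and promoters from RefSeq on GRCm38.p6. Of the 277 antibody features in the graft libraries, those of clotting and platelet antigens were used.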

Additional observations from a re-analysis of the deposited data

Results flagged for a closer look

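F5 differed in opposite directions between lineages at 3 days against naive. In macrophages the log2 ratio was 7.05, with 1 naive UMI, and in neutrophils it was -1.38. The macrophage ratio was 0.13 with cells called by their own markers, which is within 2-fold. With cells thinned to 500 UMIs, 0% of naive macrophages held F5. The value of 0.21 there is a lower bound set at 3 UMIs and does not show whether the difference was kept. Each lineage had 1 library per condition, and the difference between the lineages was not tested.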

How the results depend on the processing

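The 14 counts of genes past 2-fold and the 53 ratios were recomputed under 14 alternatives. Of 192 alternative counts, 171 stayed within 1.5 times, and of 711 alternative ratios, 584 stayed within the counting interval. Thbs1 in neutrophils ranged from -2.70 to -2.16 at 3 days against 2 hours.

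With lineages called cell by cell, monocytes had 2 members lower at 2 hours against naive, 3 higher at 3 days against naive, and 2 higher and 2 lower at 3 days against 2 hours, and neutrophils had 0 lower at 2 hours against naive. With cells thinned to 500 UMIs, monocytes had 1 lower at 2 hours against naive and 2 higher at 3 days against 2 hours, macrophages 3 higher, and neutrophils 1 higher and 0 lower at 2 hours against naive. In thinned naive macrophages 0% of cells held F3, F5, Thbs1, Serpinb2 or Plau. Any thinned macrophage ratio of these genes is a lower bound set at 3 UMIs, which holds that count down. The count of monocyte genes higher at 3 days against 2 hours, 0 in the report, was 2 with no upper cell limit or without nonclassical clusters, and 1 with means per cell, with CPM outside ribosomal, mitochondrial and immunoglobulin genes, or with clustering without the members. F13a1 stands at 1.99-fold there. With means per cell, neutrophils had 0 lower at 2 hours against naive. With lymphocyte CPM subtracted, monocytes had 1 lower at 3 days against naive and 2 lower at 3 days against 2 hours. With the intronic class median subtracted, neutrophils had 3 lower at 3 days against naive. Without neutrophil clusters 19 and 22, they had 2 lower at 3 days against naive and 0 at 2 hours, and the Plau ratio at 3 days against 2 hours turned from 1.28 to -0.22. With lymphocyte CPM subtracted, Serpinb2 in neutrophils at 3 days against 2 hours went from 0.74 to -0.86, within 2-fold both times. Apart from these constructions, the cause was not tested.

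At resolution 0.4 the 2-hour monocytes gave no value. No paired analysis was possible because each condition has 1 library. Depth limits F3, Plau and Tfpi most, with 69, 16 and 21 UMIs at 2 hours.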

Other observations

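The graft libraries also held antibody counts. The antibody to CD142, the tissue factor protein, gave 14 UMIs in the kept cells at 2 hours and 28 at 3 days, while the 9 isotype controls gave 135 to 3667 UMIs at 2 hours and 240 to 3640 at 3 days. The antibody to CD141, thrombomodulin, gave 5 and 6 UMIs, and the antibody to CD201, the endothelial protein C receptor, 34 and 20. The platelet antibodies were as low, with 19 and 15 UMIs for CD41, 5 and 18 for CD42b, 0 and 0 for CD61 and 0 and 1 for CD62P. These antibodies were below every isotype control, so no protein level was read from them.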
